A study of Mus musculus with 10 samples.

Results

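Interferon-stimulated genes were described in 10 mouse melanomas, 5 from Fes knockout tumours (Fes KO) and 5 from Fes wild-type tumours (Fes WT). The set holds 40 genes, chosen by symbol from a list of textbook interferon targets, out of 47643 genes in the count table. The choice was made with earlier results of these data known. All 40 were among the 14816 genes with enough counts to be tested. They were read in 4 subgroups, namely 5 regulators of the response, 19 type I interferon targets, 8 interferon-gamma GTPases and 8 peptide loading and MHC genes.

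Fes encodes a cytoplasmic tyrosine kinase. Tumours of the Fes KO group were Fes -/- and those of the Fes WT group Fes +/+. Mice of both groups carried 1 copy of Tyr::CreERT2, a Cre recombinase that tamoxifen switches on and that the tyrosinase promoter restricts to cells such as melanocytes, together with an oncogenic conditional Braf allele and a conditional allele of a further gene. Cre was activated in both groups by 4-hydroxytamoxifen at 5 mM, applied to the skin of the back. RNA came from whole tumours, so fewer cells of a type and less RNA per cell cannot be told apart in any value given here. Whether tumours sharing a genotype grew in different animals is not stated, and p-values therefore measure the spread between these tumours, which may be partly technical.

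Total counts were between 13226783 and 16599120 per tumour. Levels are given as CPM, that is counts scaled by library size and edgeR's normalization factors. Differences between the groups are log2 fold changes, negative where Fes KO was lower, with their standard error (SE). Fes itself was at 33.4, 32.1, 29.2, 57.5 and 42.3 CPM in Fes KO 1 to 5 and at 84.6, 74.5, 72.4, 72.7 and 102 CPM in Fes WT 1 to 5. Every Fes KO tumour was below every Fes WT tumour, but reads were still counted to Fes in each Fes KO tumour, and its log2 fold change of -1.06 (edgeR SE 0.19, adjusted p = 0.0846) did not pass the threshold of 0.05 after Benjamini-Hochberg adjustment in edgeR's quasi-likelihood test. Other fits gave Fes an adjusted p of 0.000114 (DESeq2), 0.0186 (limma-voom) and 0.0164 (edgeR without Fes KO 4), and the highest of all alternatives was 0.244. Sox10, a transcription factor that defines the melanocyte lineage, was between 392 and 969.5 CPM in the 10 tumours. The pigment-cell factor Mitf was between 23.7 and 49.0 CPM. Of 7 melanocyte markers, 6 had a log2 fold change above 0, opposite in sign to the interferon-stimulated genes, with a median of 2.93, 3 at an unadjusted p below 0.05 and 0 called in edgeR. DESeq2 called 1, the pigment enzyme gene Tyr. Fes KO 2 had the highest level of 6 of the 7, and without it 4 of 7 lay above 0 with a median of 0.37. Keratinocyte markers summed to 3720 CPM in Fes KO 2 and to at most 167 CPM in any other tumour. Skeletal muscle markers summed to 13560 CPM in Fes WT 3, 1676 CPM in Fes KO 2, 327 CPM in Fes WT 1 and 156 CPM in Fes WT 4, and to between 1.97 and 31.3 CPM in the others. The part of these cell markers in the levels of interferon-stimulated genes was not tested.

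Cells detect interferon through paired surface receptors that activate JAK kinases and STAT transcription factors. Type I interferons act mainly through a complex of STAT proteins with Irf9, which binds the interferon-stimulated response element (ISRE) and induces antiviral genes in nearly every cell type. Interferon-gamma, made mainly by T cells and natural killer cells, acts through STAT dimers that bind the gamma-activated site (GAS) and induces GTPases of cell-autonomous immunity and the machinery that loads peptides on MHC molecules. In melanoma, these genes are known for their role in showing tumour peptides to T cells.

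Promoter sequences were examined because both pathways end at short DNA motifs. RefSeq promoter windows of build GRCm38.p6, from 250 bases before to 50 bases after a transcript start, were found for 28 of the 40 genes. An ISRE core, spelled GAAANNGAAA and searched on both strands, was present in 17 of these 28 genes, or 60.7%, and in 3.99% of all 27025 genes with a window. A GAS core, spelled TTCNNNGAA and identical on both strands, was present in 8 of the 28, or 28.6%, and in 9.55% of all genes with a window. The ISRE core was found in 6 of 6 GTPases, 8 of 13 type I targets, 2 of 5 regulators and 1 of 4 peptide loading and MHC genes with a window. The GAS core was found in 3 of 6 GTPases, 3 of 13 type I targets, 1 of 5 regulators and 1 of 4 peptide loading and MHC genes. A match describes these letters only and does not show binding, and genes without one have no such letters in this window. Below are the matched stretches upstream of the start of the type I targets, with those of the GTPases Gbp7 and Igtp, the regulators Stat2 and Irf1, and B2m as examples from the other subgroups. They are printed in the direction of transcription, with the bases of the named motif in capitals (2 GAS cores in Gbp7). They show overlapping ISRE cores in Isg15, Bst2 and Oas1a and separate ones in Ifit1 and Ifit3. Both motifs are present in Bst2, where they overlap, and in Oas1a, Gbp7 and Igtp.
Isg15, ISRE core, chr4:156200863-156200908, minus strand: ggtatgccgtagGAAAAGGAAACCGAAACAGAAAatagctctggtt
Ifit1, ISRE core, chr19:34640773-34640825, plus strand: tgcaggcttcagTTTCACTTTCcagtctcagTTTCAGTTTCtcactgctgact
Ifit3, ISRE core, chr19:34583361-34583428, plus strand: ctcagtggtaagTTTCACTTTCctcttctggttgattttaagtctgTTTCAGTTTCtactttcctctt
Ifit2, GAS core, chr19:34550444-34550473, plus strand: catgggagcTTCCTGGAAgaatggataaaa
Rsad2, ISRE core, chr12:26456551-26456584, minus strand: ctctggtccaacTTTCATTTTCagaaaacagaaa
Bst2, ISRE core, chr8:71537575-71537614, minus strand: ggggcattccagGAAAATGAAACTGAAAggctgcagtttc
Bst2, GAS core, chr8:71537588-71537620, minus strand: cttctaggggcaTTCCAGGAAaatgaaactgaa
Oas1a, ISRE core, chr5:120907526-120907557, minus strand: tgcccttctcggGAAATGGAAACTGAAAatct
Oas1a, GAS core, chr5:120907603-120907635, minus strand: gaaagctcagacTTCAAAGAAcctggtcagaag
Gbp7, ISRE core, chr3:142530271-142530304, plus strand: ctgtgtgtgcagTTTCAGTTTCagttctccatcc
Gbp7, GAS core, chr3:142530218-142530269, plus strand: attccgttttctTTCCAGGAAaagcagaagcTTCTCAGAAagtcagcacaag
Igtp, ISRE core, chr11:58199510-58199543, plus strand: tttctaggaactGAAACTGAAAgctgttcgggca
Igtp, GAS core, chr11:58199499-58199531, plus strand: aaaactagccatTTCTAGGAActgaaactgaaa
Stat2, ISRE core, chr10:128270264-128270297, plus strand: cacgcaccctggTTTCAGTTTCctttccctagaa
Irf1, GAS core, chr11:53769912-53769944, plus strand: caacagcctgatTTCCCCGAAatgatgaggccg
B2m, ISRE core, chr2:122147536-122147569, plus strand: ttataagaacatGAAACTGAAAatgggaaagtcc

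The question of the comparison was whether interferon-stimulated genes differed between tumours with and without Fes. All 40 genes had a log2 fold change below 0, where 47.6% of the 14816 tested genes did. The genes were chosen with earlier results of these data known, and they moved together over the tumours. Their shared sign is therefore not 40 separate results, and without Fes WT 5 it was found in 23 of 40, beside 47.4% of tested genes. In edgeR, 0 of 40 passed at an adjusted p below 0.05. The background of called genes was 0.175% of those tested. At an adjusted p below 0.1 the count was also 0 of 40, with 0.331% of all tested genes called. Irf1, Iigp1 and Gbp2 had an unadjusted p below 0.05 with lower levels in Fes KO, which is 3 of 40 genes beside 5.39% of all tested genes. DESeq2 called 1 of the 40, Irf1, where 1.2% of all tested genes were called lower. With limma-voom 0 of 40 were called and 12 had an unadjusted p below 0.05 with lower levels in Fes KO, beside 9.46% of all tested genes. In 0 of 40 genes did every Fes KO tumour lie below every Fes WT tumour, as in 1.11% of tested genes, and in 0 of 40 did every Fes KO tumour lie above, as in 0.783%.

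The median log2 fold change was -0.47 over the 40 genes and 0.01 over all tested genes. By subgroup it was -0.44 for the regulators, -0.42 for the type I targets, -0.70 for the GTPases and -0.71 for the peptide loading and MHC genes. Members of a subgroup ranged from -1.14 to -0.08 among type I targets, from -1.52 to -0.39 among GTPases, from -0.94 to -0.34 among peptide loading and MHC genes and from -0.84 to -0.12 among regulators. The ranges of the subgroups overlapped, and the difference between their medians was not tested.

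**Figure D1:**
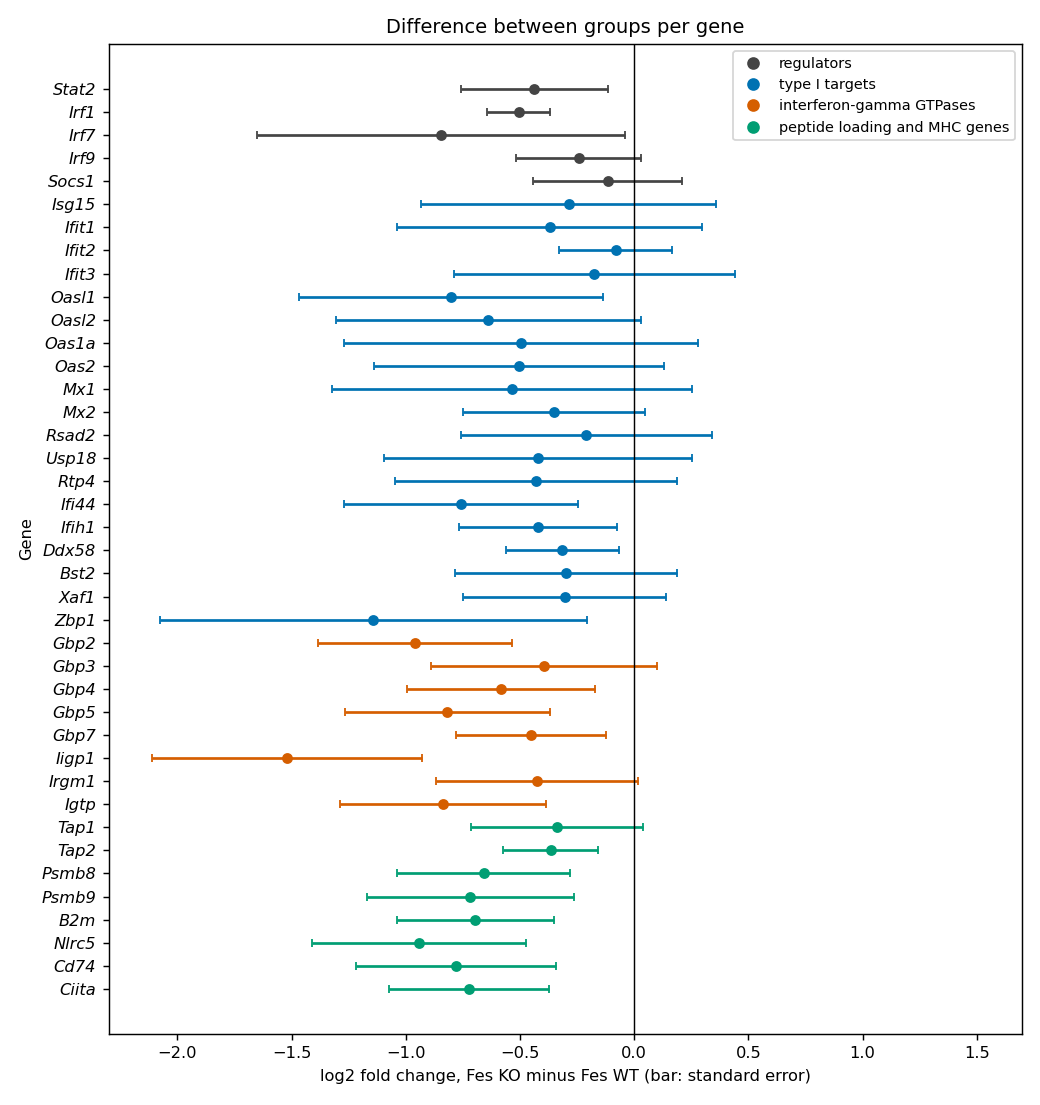
Log2 fold change of each of the 40 genes, Fes KO minus Fes WT, with bars of 1 standard error from edgeR. Every point lies below 0, and most bars of type I targets are wider than those of Irf1, Tap2 or Ddx58.

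Tumours of the same group differed widely. The mean log2 level of the 40 genes, set to 0 over the 10 tumours, ranged from -1.12 to 0.84 in Fes KO and from -0.45 to 1.44 in Fes WT, while the group means were -0.29 and 0.29. Fes WT 5 had the highest level of 37 of the 40 genes among all 10 tumours, and the exceptions were Ifit2 and Ifit3, highest in Fes KO 4, and Irf1, highest in Fes WT 1. Fes KO 4 was the highest Fes KO tumour for 19 of 19 type I targets, 8 of 8 GTPases, 7 of 8 peptide loading and MHC genes and 3 of 5 regulators. The lowest level of a gene was in Fes KO 5 for 25 of the 40 and in Fes KO 3 for 11.

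**Figure D2:**
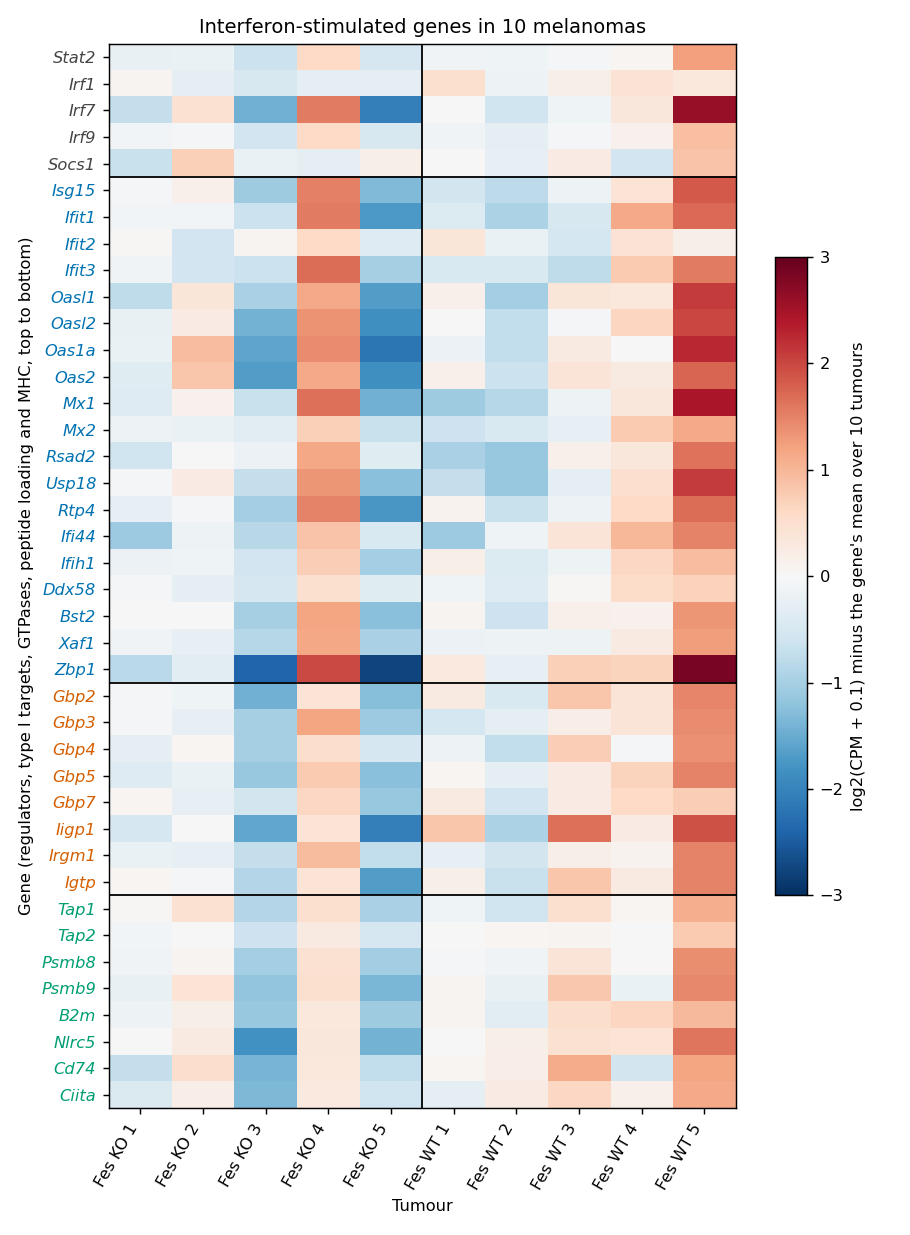
Level of each of the 40 genes (rows, coloured by subgroup) in each tumour (columns), as log2(CPM + 0.1) minus the gene's mean over 10 tumours. Fes WT 5 and Fes KO 4 are red across nearly all rows, and Fes KO 3 and Fes KO 5 are blue.

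Among regulators, Irf1 stood apart from the tumour pattern. Irf1, a transcription factor that interferon-gamma induces (ENSMUSG00000018899, chromosome 11, 53770014 to 53778374, GRCm38), was at 78.4, 61.1, 53.1, 60.3 and 61.3 CPM in Fes KO 1 to 5 and at 104, 66.6, 84.1, 100.02 and 91.7 CPM in Fes WT 1 to 5. Its groups overlapped in that Fes WT 2 lay below Fes KO 1, and the other Fes WT tumours lay above every Fes KO tumour. The group means were 62.8 ± 9.35 CPM over the Fes KO tumours against 89.2 ± 14.7 CPM over the Fes WT tumours (± SD, n = 5 each), with a log2 fold change of -0.50 (edgeR SE 0.14, adjusted p = 0.278). DESeq2 gave an adjusted p of 0.0473, which was also the lowest of all alternative fits, and the highest was 0.596. With any 1 tumour left out, the log2 fold change of Irf1 stayed between -0.60 and -0.45.

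Stat2, which joins Irf9 in the complex that binds the ISRE (ENSMUSG00000040033, chromosome 10, 128270559 to 128292849, GRCm38), was at 66.2, 67.1, 48.9, 116 and 54.1 CPM in Fes KO 1 to 5 and at 71.6, 70.8, 75.3, 79.8 and 179.9 CPM in Fes WT 1 to 5. Fes WT 5 and Fes KO 4 were the highest of their groups, and the other 8 tumours lay between 48.9 and 79.8 CPM. The log2 fold change was -0.44 (edgeR SE 0.32, adjusted p = 0.682), and -0.08 without Fes WT 5. Irf7, the main activator of type I interferon genes (ENSMUSG00000025498, chromosome 7, 141262706 to 141266481, GRCm38), was at 15.6, 35.4, 9.43, 75.6 and 6.12 CPM in Fes KO 1 to 5 and at 25.6, 16.9, 23.7, 32.6 and 157 CPM in Fes WT 1 to 5. That is a 25.6-fold range between the highest and lowest tumour, against 1.95-fold for Irf1. The log2 fold change of Irf7, -0.84 (edgeR SE 0.81, adjusted p = 0.767), was 0.20 without Fes WT 5 and -1.62 without Fes KO 4. Irf9 had a log2 fold change of -0.24 (edgeR SE 0.27, adjusted p = 0.805). Socs1, a feedback inhibitor of JAK kinases, had -0.12 (edgeR SE 0.33, adjusted p = 0.931), the value closest to 0 of the regulators.

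The type I targets' median changed sign when Fes WT 5 alone was left out. It did not when Fes KO 4 was left out as well, a fit chosen after seeing the data. Without Fes KO 1, Fes KO 2 and Fes WT 5 together, the median of these targets was 0.14. In that fit 5 of 19 targets lay below 0, beside 51.6% of all tested genes. Their lowest adjusted p in edgeR was 0.661, and 0 of 19 had an unadjusted p below 0.05. Zbp1, a sensor of Z-form nucleic acids that can trigger necroptosis (ENSMUSG00000027514, chromosome 2, 173206612 to 173218923, GRCm38), was at 8.57, 12.2, 2.83, 60.7 and 2.19 CPM in Fes KO 1 to 5 and at 18.6, 12.9, 25.1, 24.0 and 111 CPM in Fes WT 1 to 5. Fes KO 4 lay above 4 of the 5 Fes WT tumours, and the other Fes KO tumours lay below all of them. The means were 17.3 ± 24.6 CPM over the Fes KO tumours against 38.2 ± 40.7 CPM over the Fes WT tumours (± SD, n = 5 each) and the log2 fold change was -1.14 (edgeR SE 0.93, adjusted p = 0.723), the largest among type I targets. Leaving out Fes WT 5 brought it to -0.22 and leaving out Fes KO 4 to -2.57.

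Oasl1, which in mice restrains translation of Irf7 mRNA (ENSMUSG00000041827, chromosome 5, 114923240 to 114937915, GRCm38), was at 2.14, 4.80, 1.85, 8.30 and 1.09 CPM in Fes KO 1 to 5 and at 4.18, 1.78, 4.86, 4.70 and 16.3 CPM in Fes WT 1 to 5. Its log2 fold change was -0.80 (edgeR SE 0.67, adjusted p = 0.726), and -0.09 without Fes WT 5. Bst2, or tetherin, which holds budding viruses at the cell surface (ENSMUSG00000046718, chromosome 8, 71534255 to 71537456, GRCm38), was at 63.3, 63.8, 31.7, 145 and 26.5 CPM in Fes KO 1 to 5 and at 67.1, 41.4, 70.0, 69.6 and 158 CPM in Fes WT 1 to 5. The 2 high tumours, Fes KO 4 and Fes WT 5, differed little, and the groups overlapped over most of their range. Bst2 had a log2 fold change of -0.30 (edgeR SE 0.49, adjusted p = 0.877), which was 0.09 without Fes WT 5. Ifit2, one of the proteins with tetratricopeptide repeats that bind viral RNA (ENSMUSG00000045932, chromosome 19, 34550694 to 34576419, GRCm38), was at 85.2, 55.6, 88.6, 126 and 63.8 CPM in Fes KO 1 to 5 and at 108, 72.3, 57.3, 112 and 93.6 CPM in Fes WT 1 to 5. Its highest tumour was Fes KO 4 and its lowest Fes KO 2, and the log2 fold change was -0.08 (edgeR SE 0.25, adjusted p = 0.937), the closest to 0 of the 40 genes.

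The remaining 15 type I targets had log2 fold changes between -0.76 and -0.17. They were the ubiquitin-like modifier Isg15, its protease Usp18, the RNA-binding Ifit1 and Ifit3, the oligoadenylate synthetase family members Oas1a, Oas2 and Oasl2, the dynamin-like GTPases Mx1 and Mx2, the radical-SAM enzyme Rsad2 (viperin), the RNA helicase sensors Ifih1 and Ddx58, and Rtp4, Ifi44 and Xaf1. Ifi44 was at the lower end of that range, at -0.76, and Ifit3 at the upper, at -0.17. Without Fes WT 5, 12 of the 19 type I targets had a log2 fold change above 0 and 7 below, with a median of 0.06. Mx1 then had 0.60, Usp18 0.46, Isg15 0.42 and Rsad2 0.41. Without Fes KO 4, 19 of 19 lay below 0 with a median of -0.95. With both Fes KO 4 and Fes WT 5 left out, a fit chosen after seeing the data, 19 of 19 lay below 0 with a median of -0.43.

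**Figure D3:**
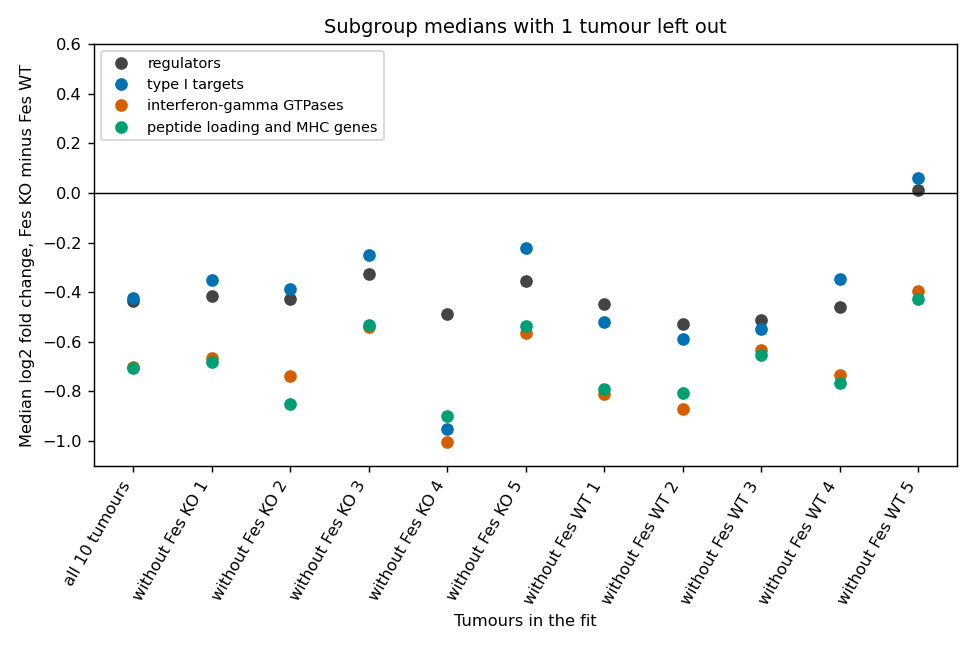
Median log2 fold change of each subgroup, Fes KO minus Fes WT, in the fit of all 10 tumours and in the 10 fits that each leave out 1 tumour. The medians of type I targets and regulators are at or above 0 only without Fes WT 5, where those of the GTPases and the peptide loading and MHC genes are -0.39 and -0.43.

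Interferon-gamma GTPases had a larger median difference than type I targets. In edgeR 2 of 8, Iigp1 and Gbp2, had an unadjusted p below 0.05 and were lower in Fes KO, beside 5.39% of all tested genes. The count depended on the fit. It was 0 of 8 with the replicate block (8.02% of all genes in either direction). It was also 0 without Fes KO 1 (8.59%), Fes KO 3 (6.48%), Fes KO 5 (8.11%), Fes WT 3 (10.7%) or Fes WT 5 (11.2%). The same held without Fes KO 2 and Fes WT 3 (11.3%), and without Fes KO 1, Fes KO 2 and Fes WT 5 together (13.7%). It was 1 of 8 without Fes KO 2 (12.1%), Fes WT 1 (6.96%) or Fes WT 4 (9.25%). It was 3 of 8 without Fes WT 2 (7.86%) and 5 of 8 without Fes KO 4 (11.9%). Iigp1, an immunity-related GTPase that attacks the vacuoles of intracellular parasites (ENSMUSG00000054072, chromosome 18, 60376027 to 60392634, GRCm38), was at 21.9, 31.5, 10.5, 41.2 and 7.43 CPM in Fes KO 1 to 5 and at 55.4, 16.1, 98.1, 36.9 and 116 CPM in Fes WT 1 to 5. Fes WT 2 and Fes WT 4 lay within the Fes KO range, and Fes WT 1, Fes WT 3 and Fes WT 5 lay above it. The means were 22.5 ± 14.1 CPM over the Fes KO tumours against 64.6 ± 41.9 CPM over the Fes WT tumours (± SD, n = 5 each), and the log2 fold change of -1.52 (edgeR SE 0.59, adjusted p = 0.457) was the largest of the 40 genes. It was -1.19 without Fes WT 5 and -1.85 without Fes KO 4.

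Gbp2, a guanylate-binding protein that coats the membranes of pathogen vacuoles (ENSMUSG00000028270, chromosome 3, 142620602 to 142638008, GRCm38), was at 36.8, 34.8, 13.9, 50.8 and 15.5 CPM in Fes KO 1 to 5 and at 45.8, 27.9, 67.9, 49.4 and 104 CPM in Fes WT 1 to 5. Fes KO 4 lay above Fes WT 1, Fes WT 2 and Fes WT 4, and Fes KO 3 and Fes KO 5 lay below every Fes WT tumour. Its log2 fold change was -0.96 (edgeR SE 0.43, adjusted p = 0.515). Gbp5, which promotes inflammasome assembly (ENSMUSG00000105504, chromosome 3, 142493978 to 142522344, GRCm38), was at 10.7, 12.2, 6.29, 24.3 and 5.76 CPM in Fes KO 1 to 5 and at 14.6, 11.6, 16.5, 22.3 and 39.3 CPM in Fes WT 1 to 5. Gbp3, of the same family (ENSMUSG00000028268, chromosome 3, 142560026 to 142573209, GRCm38), was at 58.4, 51.5, 30.4, 139.9 and 28.9 CPM in Fes KO 1 to 5 and at 42.6, 50.4, 69.8, 79.5 and 164 CPM in Fes WT 1 to 5. The log2 fold changes were -0.82 (edgeR SE 0.45, adjusted p = 0.593) for Gbp5 and -0.39 (edgeR SE 0.50, adjusted p = 0.831) for Gbp3, and that of Gbp3 was 0.03 without Fes WT 5.

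Igtp and Irgm1 belong to the subclass of immunity-related GTPases that regulates the others on host membranes. Igtp (ENSMUSG00000078853, chromosome 11, 58199556 to 58207591, GRCm38) was at 24.4, 22.9, 12.6, 31.3 and 7.29 CPM in Fes KO 1 to 5 and at 26.5, 14.8, 41.4, 28.0 and 65.5 CPM in Fes WT 1 to 5. Irgm1 (ENSMUSG00000046879, chromosome 11, 48861968 to 48871683, GRCm38) was at 53.7, 52.3, 37.5, 119 and 36.9 CPM in Fes KO 1 to 5 and at 51.9, 41.9, 69.6, 66.7 and 173 CPM in Fes WT 1 to 5. In both genes Fes WT 5 was the highest tumour and Fes KO 5 the lowest. Igtp had a log2 fold change of -0.84 (edgeR SE 0.45, adjusted p = 0.589) and Irgm1 of -0.43 (edgeR SE 0.44, adjusted p = 0.787), and the latter was 0.06 without Fes WT 5. The other GTPases, Gbp4 and Gbp7, had -0.58 and -0.45. Without Fes WT 5, 6 of 8 GTPases lay below 0 with a median of -0.39, and without Fes KO 4, 8 of 8 with a median of -1.002.

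All 8 peptide loading and MHC genes kept a log2 fold change below 0 in every fit with 1 tumour left out. B2m, the light chain of MHC class I (ENSMUSG00000060802, chromosome 2, 122147686 to 122153083, GRCm38), was at 769.8, 969, 389, 1078 and 409.7 CPM in Fes KO 1 to 5 and at 916, 681, 1232, 1339 and 1687 CPM in Fes WT 1 to 5. Fes WT 3, Fes WT 4 and Fes WT 5 lay above every Fes KO tumour, and Fes WT 1 and Fes WT 2 lay within the Fes KO range. The means were 723 ± 315 CPM over the Fes KO tumours against 1171 ± 389 CPM over the Fes WT tumours (± SD, n = 5 each), with a log2 fold change of -0.70 (edgeR SE 0.34, adjusted p = 0.560). Nlrc5, the transactivator of MHC class I genes (ENSMUSG00000074151, chromosome 8, 94434356 to 94527272, GRCm38), was at 26.9, 32.7, 7.58, 34.3 and 10.1 CPM in Fes KO 1 to 5 and at 26.8, 30.9, 37.6, 36.3 and 83.2 CPM in Fes WT 1 to 5. Fes KO 3 and Fes KO 5 lay below every Fes WT tumour, and the other Fes KO tumours lay among Fes WT 1 to 4. Its log2 fold change was -0.94 (edgeR SE 0.47, adjusted p = 0.562), the largest of this subgroup.

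Of the MHC class II genes, Ciita, the transactivator of that pathway (ENSMUSG00000022504, chromosome 16, 10480059 to 10528418, GRCm38), was at 7.12, 11.1, 3.70, 11.9 and 6.34 CPM in Fes KO 1 to 5 and at 7.90, 11.4, 14.9, 10.8 and 21.3 CPM in Fes WT 1 to 5. Cd74, the invariant chain that guards the class II groove (ENSMUSG00000024610, chromosome 18, 60803848 to 60812652, GRCm38), was at 265, 630.5, 165, 541 and 262 CPM in Fes KO 1 to 5 and at 457, 498, 948, 296 and 996 CPM in Fes WT 1 to 5. Cd74 was the member of the subgroup in which Fes KO 2 and not Fes KO 4 was the highest Fes KO tumour, and Fes WT 1, Fes WT 2 and Fes WT 4 lay within the Fes KO range. The log2 fold changes were -0.72 (edgeR SE 0.35, adjusted p = 0.557) for Ciita and -0.78 (edgeR SE 0.44, adjusted p = 0.595) for Cd74. The peptide transporter genes Tap1 and Tap2 had -0.34 and -0.37, and the immunoproteasome subunit genes Psmb8 and Psmb9 had -0.66 and -0.72. The lowest adjusted p of the subgroup in edgeR was 0.557, and 0 of 8 had an unadjusted p below 0.05. DESeq2 gave 2 of 8 at an unadjusted p below 0.05 and lower in Fes KO, beside 6.48% of all tested genes, and limma-voom 7 of 8, beside 9.46%.

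**Figure D4:**
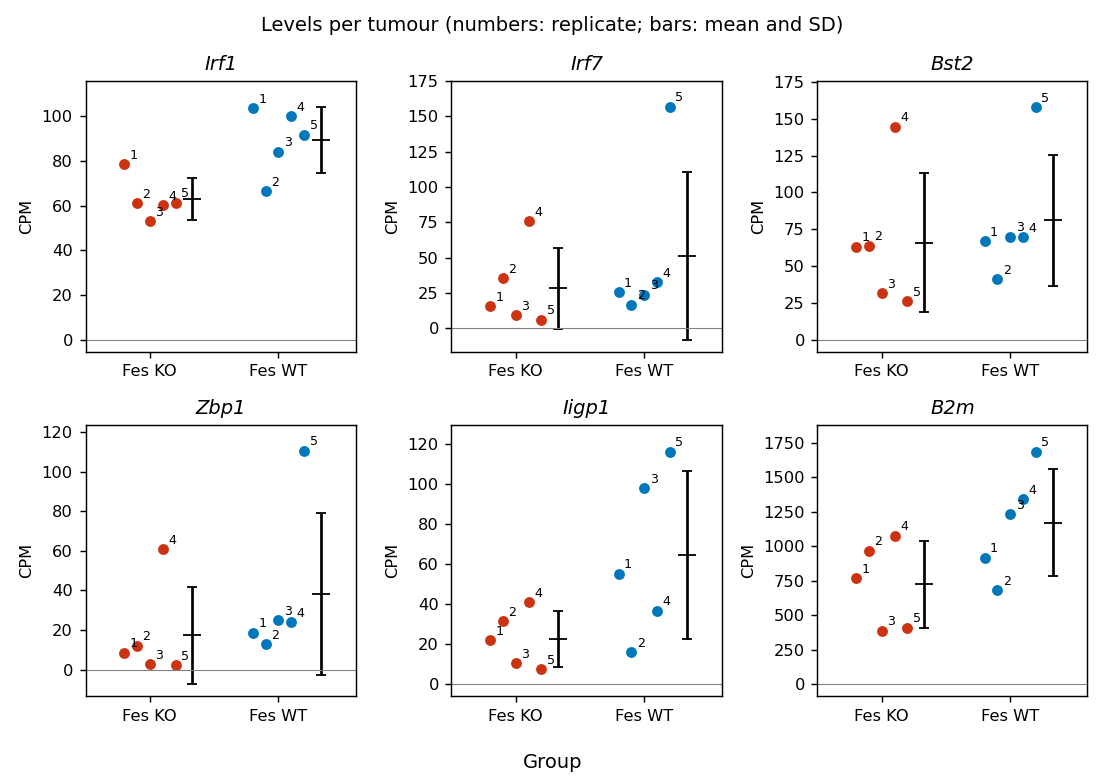
CPM of 6 genes in each tumour, with points numbered by replicate and bars for the mean and SD of 5 tumours. Irf1 separates most tumours of the groups, Irf7, Bst2 and Zbp1 are led by Fes KO 4 and Fes WT 5, and in Iigp1 and B2m 3 Fes WT tumours lie above every Fes KO tumour.

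Type I targets were then compared with the other subgroups within each tumour. A subgroup's relative level in a tumour is the mean of its genes' log2 CPM, set to 0 over the 10 tumours. For type I targets it was -0.29, 0.01, -0.89, 1.21 and -1.27 in Fes KO 1 to 5 and -0.27, -0.62, -0.03, 0.51 and 1.62 in Fes WT 1 to 5. For GTPases it was -0.17, -0.13, -1.03, 0.67 and -1.22 in Fes KO 1 to 5 and 0.09, -0.56, 0.61, 0.33 and 1.42 in Fes WT 1 to 5. For peptide loading and MHC genes it was -0.21, 0.26, -1.18, 0.37 and -0.96 in Fes KO 1 to 5 and -0.03, -0.08, 0.56, 0.07 and 1.20 in Fes WT 1 to 5. The 3 subgroups thus placed Fes WT 5 highest and Fes KO 3 and Fes KO 5 lowest. They differed for Fes KO 4, which was next to Fes WT 5 in type I targets and GTPases but below both Fes WT 3 and Fes WT 5 in peptide loading and MHC genes.

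The difference between type I targets and GTPases within a tumour, in log2 units, was -0.12, 0.14, 0.14, 0.55 and -0.06 in Fes KO 1 to 5 and -0.35, -0.06, -0.65, 0.19 and 0.21 in Fes WT 1 to 5. It was highest in Fes KO 4 and lowest in Fes WT 3. The mean was 0.13 ± 0.26 in Fes KO and -0.13 ± 0.37 in Fes WT (SD, n = 5 each), so the groups overlapped. Against peptide loading and MHC genes, type I targets were highest in Fes KO 4 at 0.84 and lowest in Fes WT 3 at -0.59. Compared with the rest of the Fes KO group, Fes KO 4 was higher by a median log2 difference of 1.92 in type I targets, 1.28 in GTPases and 0.99 in peptide loading and MHC genes. Fes WT 5 was above the rest of the Fes WT group by 1.85, 1.35 and 1.09 in the same order. Fes WT 3 was at -0.16, 0.38 and 0.42 relative to the rest of its group.

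**Figure D5:**
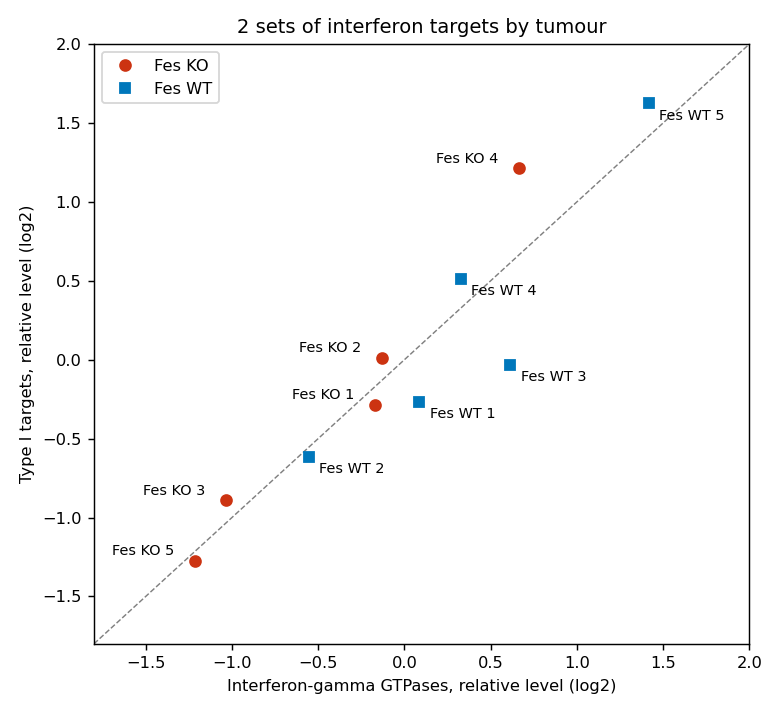
Relative level of the 19 type I targets against that of the 8 GTPases in each tumour, both in log2 units set to 0 over 10 tumours, with the dashed line marking equal values. Fes KO 4 lies above the line by 0.55 and Fes WT 3 below it by 0.65, Fes WT 1 lies below it by 0.35, and the other tumours lie closer to it.

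Genes of a subgroup moved together over the tumours. With each group centred on its own mean, the median Pearson correlation over 10 tumours was 0.90 for the 171 pairs of type I targets, 0.88 for the 28 pairs of GTPases and 0.89 for the 28 pairs of peptide loading and MHC genes. Median Spearman correlations were 0.84, 0.88 and 0.90. Between type I targets and GTPases the median was 0.87 over 152 pairs, and between type I targets and peptide loading and MHC genes 0.78 over 152 pairs. All pairs share the same 10 libraries, and the values are descriptions across few tumours. Without both Fes KO 4 and Fes WT 5, the median was 0.85 among GTPases, 0.73 among type I targets and 0.73 between these subgroups. Irf1 and Socs1 stood apart with median correlations of 0.28 and 0.23 with type I targets, and Ifit2 had 0.45 with the other type I targets. Cd74 had 0.54 and every other member at least 0.72.

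Levels can be compared between genes only per length of transcript. In CPM per kilobase of exon, B2m was at 1101 and Cd74 at 301 over the 10 tumours, well above Bst2 at 81.5, Ifit3 at 40.3 and Isg15 at 33.2. The lowest were Ifi44 at 1.004 and Ciita at 1.12. The range over tumours was widest among type I targets, from 2.27-fold in Ifit2 to 50.5-fold in Zbp1. It was 3.69-fold to 15.7-fold among GTPases and 2.66-fold to 11.0-fold among peptide loading and MHC genes. The fewest counts of any member in any tumour were 15, for Oasl1.

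Some counts can be shared with similar or overlapping genes. Ifit3 matched Ifit3b at 97.8% identity over 1700 bases, Oas1a matched Oas1g at 97.6% over 1861 bases, and Mx1 and Mx2 matched each other at 94.8%. Gbp7 and Rtp4 share 11.3% and 13.9% of their exon bases with predicted genes on the same strand. Psmb8 and Tap2 share 14.7% and 18.5% with predicted genes on the opposite strand. The strand setting of the counting is not given in the sources used here, so reads of such pairs cannot be told apart and these values are uncertain.

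The rest of the pathway was examined from ligand to inhibitor. Of 10 interferon genes, 7 had 0 counts in every tumour, including Ifnb1, which allows up to 0.0195 CPM over the 10 tumours (3 counts, counting error only). Ifng had 10 counts in all, 2 in Fes KO 4, 1 in Fes WT 1, 2 in Fes WT 3 and 5 in Fes WT 5. Ifna2 and Ifnk had 1 count each, in Fes WT 5 and Fes KO 2. These counts were too few for a test.

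Of 10 receptor chain and kinase genes, 9 were tested, 6 lay below 0 and 0 were called, with a median log2 fold change of -0.19. For this and the lists below, the background was 47.6% of all tested genes below 0 and 0.175% called in edgeR. Ifngr1, the ligand-binding chain of the interferon-gamma receptor, was at 127, 124, 133, 172 and 142 CPM in Fes KO 1 to 5 and at 204, 218, 170.4, 165 and 192 CPM in Fes WT 1 to 5. Fes KO 4 overlapped the Fes WT range, and the other Fes KO tumours lay below it. Its log2 fold change was -0.44 (edgeR SE 0.12, adjusted p = 0.239), with an adjusted p of 0.0292 in DESeq2 and up to 0.556 in other fits. Ifnar2, a chain of the type I receptor, had -0.48 (edgeR SE 0.19, adjusted p = 0.472). Ifnar1 had 0.02 (SE 0.10) and Ifngr2 0.12 (SE 0.11), both also receptor chains. The receptor chain gene Il10rb had -0.28 (edgeR SE 0.18, adjusted p = 0.646). Ifnlr1, another, was not tested and was at 7.42 CPM in Fes KO 2 and at most 1.45 CPM in any other tumour.

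Of 11 genes that sense nucleic acids or induce interferon, 10 lay below 0 and 0 were called, with a median log2 fold change of -0.38. The smallest p among them belonged to Tmem173, which encodes the adaptor STING, at -0.73 (edgeR SE 0.26, adjusted p = 0.411). A list of 24 further type I targets had 24 of 24 below 0, beside 47.6% of all tested genes, and a median of -0.47. In edgeR 0 were called, beside 0.175%. The sign depended on Fes WT 5 in part of the list. Without that tumour, Oas1b, Oas1g, Oas3, Parp12, Cmpk2, Ifi27l2a and Herc6 lay above 0, from 0.03 to 0.77. The other genes of the list stayed below 0. Slfn5, a Schlafen family gene, had the smallest p of that list. It was at 44.6, 54.8, 30.4, 56.0 and 24.6 CPM in Fes KO 1 to 5 and at 137, 104, 122, 73.6 and 64.9 CPM in Fes WT 1 to 5. Its groups did not overlap, with Fes KO lower, as in 1.11% of all tested genes. Fes WT 5 was the lowest Fes WT tumour for Slfn5, whereas the list as a whole had its highest relative level there, at 1.18. The log2 fold change of Slfn5 was -1.25 (edgeR SE 0.28, adjusted p = 0.183), and the adjusted p was 0.00310 in DESeq2, 0.0330 in limma-voom and up to 0.444 in other fits. It kept its size without Fes WT 5, at -1.37, and without Fes KO 4, at -1.38.

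Of 19 further interferon-gamma and peptide loading genes, 16 were tested, 15 lay below 0 and 0 were called, with a median of -0.53. Irgm2, an immunity-related GTPase, had the smallest p at -0.83 (edgeR SE 0.34, adjusted p = 0.492). Of 8 inhibitors of the pathway, 5 lay below 0 and 0 were called, with a median of -0.09. Irf2, a repressor that competes for the ISRE, had the smallest p of these at -0.21 (edgeR SE 0.11, adjusted p = 0.572).

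Most tested markers of leukocytes, macrophages, T cells and cytotoxic cells had a log2 fold change below 0, where 47.6% of all tested genes did. The 5 general leukocyte markers summed to between 163.8 and 481.1 CPM over the Fes KO tumours and between 285.3 and 583.3 CPM over those of Fes WT, with 5 of 5 below 0 in log2 fold change. The 12 macrophage markers summed to 1020 to 2248 CPM for Fes KO against 1608 to 3560 CPM for Fes WT, with 12 of 12 below 0 and a median of -0.78. The 12 T cell markers, of which 10 were tested and 10 lay below 0, summed to 4.07 to 29.1 CPM and 11.1 to 40.9 CPM. Of 11 cytotoxic and natural killer cell markers, 7 were tested and 6 lay below 0, while Klrb1c was at 0.78. Their sums were 7.83 to 15.5 CPM and 15.8 to 31.7 CPM, Fes KO first. These sums did not overlap, but Fes KO 2 at 15.53 CPM and Fes WT 2 at 15.78 CPM were close. Among single tested genes, 1.11% had groups that did not overlap with Fes KO lower, and a share for sums was not computed. Of 10 dendritic cell markers, 9 were tested and 8 lay below 0, with a median of only -0.09. Their sums overlapped, at 83.0 to 120.9 CPM for Fes KO and 97.3 to 157.6 CPM for Fes WT. Of 7 B and plasma cell markers, 2 were tested and 2 lay below 0. Their sums were 1.97 to 13.0 CPM and 3.69 to 16.9 CPM. None of the markers in these lists was at 0 in every tumour, and 0 were called in edgeR.

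By tumour, Fes WT 5 had the highest sum of T cell markers, 40.9 CPM, and Fes KO 3 and Fes KO 5 the lowest, 4.07 and 5.03 CPM. Fes KO 4 had 14.4 CPM of T cell markers, below Fes KO 2 at 29.1 CPM, and 2248 CPM of macrophage markers, the highest of the Fes KO group. Fes WT 1 had the highest macrophage sum, 3560 CPM, and a relative level of type I targets of -0.27. General leukocyte markers summed to 583.3 CPM in Fes WT 5, the highest, 488.3 CPM in Fes WT 1 and 481.1 CPM in Fes KO 4. The lowest leukocyte sums were 163.8, 166.8 and 174.2 CPM, in Fes KO 3, Fes KO 1 and Fes KO 5. As relative levels, leukocyte markers were at 0.96 in Fes WT 5, 0.69 in Fes KO 4 and 0.51 in Fes WT 1. The part of immune cells in the levels of interferon-stimulated genes was not tested.

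Sex-linked expression divided the tumours in another way. Xist, the RNA of the inactive X chromosome, reached 719.8 CPM in Fes WT 5, 713 CPM in Fes KO 1 as well as 670.1 CPM in Fes KO 2, and no other tumour exceeded 0.678 CPM. Without these 3 tumours, 21 of 40 genes lay below 0, near the share of all tested genes, 51.6%. The medians were 0.02 for regulators, 0.14 for type I targets, -0.38 for GTPases and -0.61 for peptide loading and MHC genes. Since Fes WT 5 is one of the 3, its removal and that of the other Xist-expressing tumours cannot be told apart in this fit. In the fits with 1 tumour left out, 23 of 40 genes lay below 0 without Fes WT 5, beside 47.4% of all tested genes. The count was 39 of 40 without Fes KO 1 (48.4% of all tested genes) and 39 of 40 without Fes KO 2 (52.4%). The medians of type I targets were 0.06, -0.35 and -0.39 in the same order. The part of sex in these levels was not tested.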

How the data were processed

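RNA of 5 Fes KO and 5 Fes WT melanomas was sequenced, and the authors deposited raw counts of every gene together with normalized log2 values. Per the submitters' processing notes, the tools were STAR 2.51b, Subread 1.4.6 and FastQC, with GRCm38 (mm10) as the build. Tool settings and strand handling were not given in the sources used here. The deposited log2 values match log2(count/size factor + 1) within 5.3e-11.

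The main test was edgeR's (version 4.0.16, under R 4.3.3), using TMM normalization, the filterByExpr filter, a quasi-likelihood fit and 2-sided tests, adjusted by Benjamini-Hochberg over 14816 genes. Sample titles gave the groups and the replicate numbers. Levels are CPM, and relative levels and correlations used log2 CPM with a prior count of 2. Alternatives were DESeq2 version 1.42.0, limma version 3.58.1 (voom with quality weights, and the deposited log2 values), other normalization factors and filters, a replicate block and fits with tumours left out. The scripts were tested on simulated counts. The 40 genes, the subgroups and the other lists were chosen with earlier results of these data known. Values per tumour are given for the 8 genes with the smallest unadjusted p, any gene whose groups do not overlap, and, in each subgroup, the 2 genes with the highest mean CPM and the 2 with the largest log2 fold change. From the other pathway lists the gene with the smallest p is given, with Ifng, Ifnb1 and the receptors. Positions and exon lengths came from GENCODE release M21, promoters from RefSeq, and similar transcripts from blastn version 2.17.0+ (at least 90% identity over 200 bases). A further engineered allele is not reported here.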

Additional observations from a re-analysis of the deposited data

Results flagged for a closer look

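In 3 of 88 groups of 5 tumours tested for an outlying tumour, 1 tumour stood apart by Dixon's ratio, the gap to its nearest neighbour over the whole range of the group, and in each it was Fes WT 5, the highest of the Fes WT tumours. Chance flags about 1 in 20 such groups, and 3 of 88 is not above that share. The 3 are also not separate, since all concern the same tumour and Stat2 is one of the regulators. On log2 levels, the ratio was 0.873 for Stat2, 0.9 for the peptide transporter gene Tap2 and 0.752 for the relative level of the regulators. The critical value is 0.71 for 5 tumours. Stat2 was at 179.9 CPM in Fes WT 5 but between 70.8 and 79.8 CPM in Fes WT 1 to 4, and Tap2 at 87.9 CPM against 50.9 to 53.8 CPM. The relative level of the regulators was 1.18 in Fes WT 5 and at most 0.08 in the other Fes WT tumours. Fes WT 5 also expressed Xist, at 719.8 CPM, and had the highest sum of T cell markers, 40.9 CPM. The part of these in its interferon-stimulated genes was not tested.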

How the results depend on the processing

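The subgroup medians of GTPases and of peptide loading and MHC genes stayed below 0 in all 21 alternative fits, and 0 of 40 genes were called in each of them but DESeq2, which called 1, Irf1. The number with an unadjusted p below 0.05, which was 3 beside 9.62% of all tested genes, became 5 in DESeq2 (11.4%), 12 in limma-voom (17.7%), 1 without Fes KO 2 and Fes WT 3 (11.3%), 1 without the 3 Xist-expressing tumours (13.7%) and 6 without both Fes KO 4 and Fes WT 5 (12.9%), the last chosen after seeing the data. With 1 tumour left out it was between 1 and 17, the highest without Fes KO 4 (11.9%), with 0 called. The number with a log2 fold change below 0 was then between 23 and 40, the lowest without Fes WT 5 (47.4% of all tested genes). It was 21 without the Xist-expressing tumours (51.6%). Medians with 1 tumour left out ranged from -0.53 to 0.011 for regulators, from -0.95 to 0.060 for type I targets, from -1.002 to -0.39 for GTPases and from -0.90 to -0.43 for peptide loading and MHC genes. Without the Xist-expressing tumours they were 0.018 for regulators and 0.14 for type I targets. Over the fits with 1 tumour left out, the log2 fold change changed sign in these genes, with ranges of Irf7 -1.62 to 0.20, Irf9 -0.47 to 0.011, Socs1 -0.38 to 0.14, Isg15 -0.95 to 0.42, Ifit1 -1.08 to 0.14, Ifit2 -0.27 to 0.027, Ifit3 -0.96 to 0.34, Oasl2 -1.27 to 0.021, Oas1a -1.03 to 0.39, Oas2 -0.95 to 0.011, Mx1 -1.29 to 0.60, Rsad2 -0.64 to 0.41, Usp18 -0.94 to 0.46, Rtp4 -1.17 to 0.075, Bst2 -0.81 to 0.090, Xaf1 -0.82 to 0.060, Gbp3 -0.94 to 0.030 and Irgm1 -0.84 to 0.060. Without the Xist-expressing tumours it was above 0 for Irf7 0.32, Irf9 0.028, Socs1 0.018, Isg15 0.54, Ifit1 0.32, Ifit2 0.092, Ifit3 0.64, Oasl2 0.058, Oas1a 0.25, Mx1 0.82, Mx2 0.063, Rsad2 0.66, Usp18 0.52, Rtp4 0.24, Bst2 0.14, Xaf1 0.19, Zbp1 0.14, Gbp3 0.15 and Irgm1 0.18. Rsad2 was at 0.25 in limma-voom, and Socs1 at 0.21 without both Fes KO 4 and Fes WT 5. The median correlation among type I targets was 0.73 without both, against 0.90. The cause of these changes was not tested. An adjusted p of Zbp1 that DESeq2 gives as NA was left out.

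Same-numbered tumours did not deviate together, with correlations of 0.17, -0.38, -0.21, -0.11 and 0.14 for numbers 1 to 5. The labels do not say what the numbers stand for, and these values cannot exclude a pairing. With the replicate block, 4 genes were called over all genes and 0 of 40, 1 of 40 had an unadjusted p below 0.05 (8.02% of all genes), Rsad2 was at 0.034, and the medians were -0.39, -0.38, -0.63 and -0.73 in the order above. With 5 tumours a group, and Fes KO 4 and Fes WT 5 each moving the medians, these data cannot show whether the lower levels belong to Fes KO tumours in general.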
